A study of Mus musculus with 4 samples.

Results

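The genes described here are 38 mouse genes of fatty acid oxidation and of peroxisomes, picked as a named list, out of 18454 genes tested. They comprise the enzymes that activate fatty acids and carry them into mitochondria, the enzymes of mitochondrial and peroxisomal beta-oxidation, the PPAR nuclear receptors, and peroxins, the proteins that build peroxisomes. Each gene was found on the array by its symbol in the scanner files, or for Eci1 by the older symbol Dci, and all 38 had a probe that passed the filter on dim signals. The brightest probe stood for each gene.

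RNA came from cultured spermatogonial stem cells, germ cells that renew themselves and feed sperm production, of C57/BL6 x DBA/2 F1 mice (age day 5) and was measured on 4 two-colour Agilent arrays. On each array the green channel (Cy3) held cells of the -F+S condition, kept for 12 h in medium with FGF2 withdrawn and with SU5402, an inhibitor of the FGF receptor kinase, added. The red channel (Cy5) held control cells in normal culture, whose medium lacked serum and contained the growth factors FGF2 (5 ng/ml) and GDNF (40 ng/ml). The design gives 4 biological replicates of each condition, and the comparison asks which genes respond to FGF2. Dyes were not swapped, so a dye effect on single genes and the treatment cannot be told apart.

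Beta-oxidation shortens fatty acids stepwise and yields acetyl-CoA and reduced cofactors. A fatty acid is first activated to its CoA ester and, if long, moved into mitochondria as a carnitine ester, where each round runs through a dehydrogenation, a hydration, a second dehydrogenation and a thiolysis. Peroxisomes run a similar cycle that starts with an oxidase, and they take on very long and branched chains. PPAR receptors pair with RXR receptors and switch on many of these genes, and in the testis Sertoli cells are known to burn fatty acids.

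Of the 38 members, 24 were higher and 4 lower in -F+S cells than in normal culture, and 10 did not pass the test (limma, adjusted p under 0.05 over all genes). Among all genes tested, 37.5% were called higher and 30.9% lower, against 63.2% of the members for the rises. Called in either direction were 28 members and 68.4% of all genes. At least 2-fold rises made up 10 members (26.3%), where 11.7% of all genes rose that much, and 0 members fell at least 2-fold (1.65% of all genes). The median log2 ratio of -F+S over normal culture was 0.38 over the members and 0.023 over all genes. On the single arrays the members' median was 0.44, 0.44, 0.40 and 0.47 for replicates 1 to 4. All 4 arrays had the same sign in 31 members (81.6%), a share to be read against 73.5% of all genes, and the channels did not overlap in 27 members, where 61.1% of all genes had none.

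The split of calls moved with the scaling. Higher members made up 85.7% of those called, and 73.1% with the scanner software's own LogRatio, for which the median of all genes lay lower by a shift of -0.15. Over all genes these shares were 54.9% and 41.7%.

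**Figure D1:**
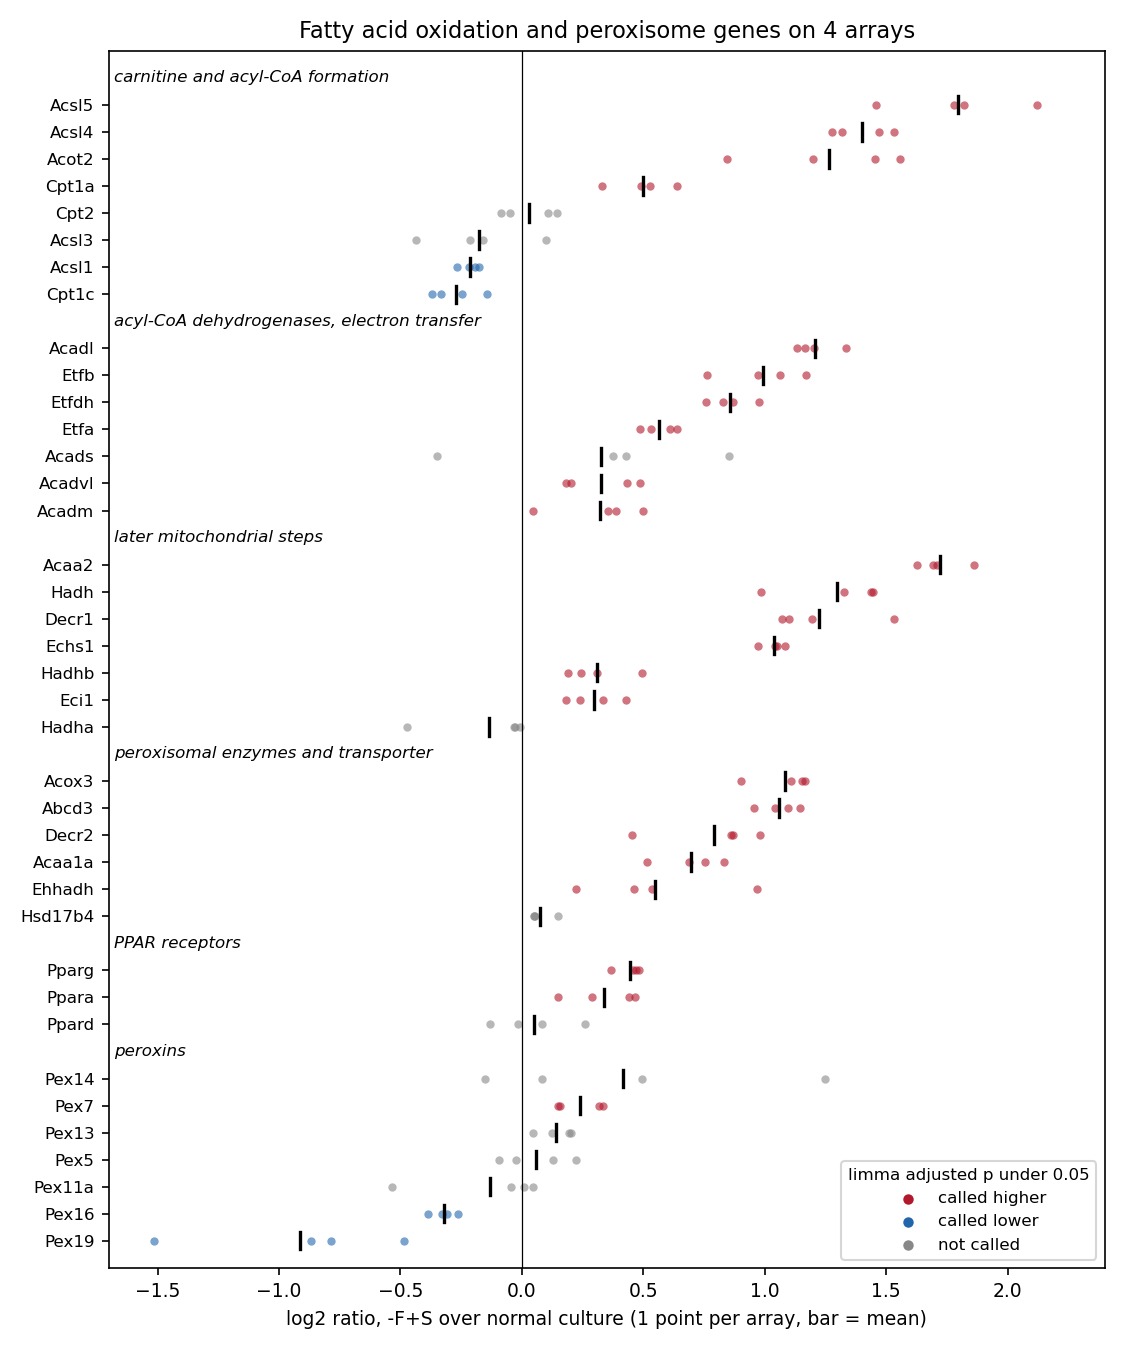
Each point is the log2 ratio of -F+S over normal culture on 1 of 4 arrays (horizontal axis), for each of the 38 members grouped by role (vertical axis), with the mean as a bar. Colours give the limma call. Acsl5 (mean 1.79) and Acaa2 (1.72) lie farthest right, and Pex19 (-0.91) lies farthest left.

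Promoter sequences are shown for 5 members to let the results be set beside the DNA in front of the gene. Acsl5, Hadh and Acadl were each called at least 2-fold higher, Etfdh carries a site that few promoters hold, and Hadhb shares its upstream region with Hadha. The sequences are those of RefSeq (GRCm38.p6), given 5′ to 3′ on the strand of the gene as the 250 bases before its start, in lower case with motif matches in capitals.
Acsl5, chr19:55253119-55253368, plus strand: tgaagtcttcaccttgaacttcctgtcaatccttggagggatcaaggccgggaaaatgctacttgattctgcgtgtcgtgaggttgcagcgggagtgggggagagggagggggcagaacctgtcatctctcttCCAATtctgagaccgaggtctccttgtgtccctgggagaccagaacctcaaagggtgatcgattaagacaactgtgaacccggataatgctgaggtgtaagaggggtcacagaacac
Hadh, chr3:131272102-131272351, minus strand: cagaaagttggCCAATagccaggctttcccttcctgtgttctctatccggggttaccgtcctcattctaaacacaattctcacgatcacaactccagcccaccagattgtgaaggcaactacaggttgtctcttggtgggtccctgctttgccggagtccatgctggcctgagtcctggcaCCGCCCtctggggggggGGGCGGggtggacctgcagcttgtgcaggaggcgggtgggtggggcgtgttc
Acadl, chr1:66863310-66863559, minus strand: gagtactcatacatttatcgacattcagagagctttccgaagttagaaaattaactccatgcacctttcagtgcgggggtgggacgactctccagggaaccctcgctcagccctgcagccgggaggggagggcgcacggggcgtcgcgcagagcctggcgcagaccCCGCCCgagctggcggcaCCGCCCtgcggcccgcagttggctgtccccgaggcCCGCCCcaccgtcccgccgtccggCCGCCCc
Etfdh, chr3:79628768-79629017, minus strand: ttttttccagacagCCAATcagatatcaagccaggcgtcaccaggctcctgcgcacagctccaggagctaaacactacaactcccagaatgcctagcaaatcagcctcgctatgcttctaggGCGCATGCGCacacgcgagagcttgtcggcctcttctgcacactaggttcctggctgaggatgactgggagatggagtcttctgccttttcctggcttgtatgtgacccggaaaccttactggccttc
Hadhb, chr5:30155003-30155252, plus strand: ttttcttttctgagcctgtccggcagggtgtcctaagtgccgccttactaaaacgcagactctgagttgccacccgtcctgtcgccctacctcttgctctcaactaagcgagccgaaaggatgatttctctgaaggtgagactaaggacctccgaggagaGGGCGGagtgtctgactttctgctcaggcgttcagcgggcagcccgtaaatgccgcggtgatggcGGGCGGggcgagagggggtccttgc

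The motifs were searched on both strands of RefSeq windows of 300 bases, 250 before and 50 after the start, of which 41 belonged to 34 members. The PPAR response element, a direct repeat of AGGTCA with 1 base between, was in 0 of these windows, as was the element of the estrogen-related receptors (TCAAGGTCA), which shares those letters and may overlap it. Of all 32851 windows, 0.0396% held the first and 0.423% the second. The FOXO site (GTAAACA) was also in 0 member windows and in 3.65% of all. These letters were searched in this window only, and a response element farther from the start would not be seen. The palindromic site of NRF1 (nuclear respiratory factor 1), a regulator of mitochondrial genes, was in windows of 2 members, Etfdh and Ppara, against 0.971% of all windows. GC boxes (GGGCGG) were in 30 of the 41 member windows and in 35.7% of all windows. The windows with them belonged to 28 members, of which 16 were called higher, where 22 of the 34 members with a window were called higher. CCAAT boxes (CCAAT) were in 19 of the 41 member windows and in 37.4% of all. The printed Acadl sequence holds 4 GC boxes and that of Hadhb 2. Hadh has 2 and a CCAAT box, Etfdh has a CCAAT box and the NRF1 site, and Acsl5 has a CCAAT box.

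In the activation of fatty acids, members of 1 enzyme family went different ways. The Acsl genes encode long-chain acyl-CoA synthetases, which make the CoA ester. Acsl5, a form found at mitochondria and the endoplasmic reticulum, had log2 normalized intensities of 12.40, 12.38, 12.08 and 12.41 in -F+S cells, against 10.62, 10.56, 10.62 and 10.29 in normal culture. All -F+S values lay above all control values, and the gene was 3.47-fold higher (log2 1.79, SE 0.10, n = 4, limma adjusted p = 4.18e-07). Its probe lies on chromosome 19 between 55368743 and 55369331 (mm9). Acsl4, which prefers arachidonic acid, had 14.77, 14.94, 14.66 and 14.70 in -F+S cells, against 13.30, 13.40, 13.34 and 13.42 in normal culture. Its channels did not overlap either, with a 2.64-fold rise (log2 1.40, SE 0.074, limma adjusted p = 2.69e-07), but its second probe, on chromosome X at 138755198 to 138755257, gave a smaller log2 ratio of 0.54 than the first at 138752602 to 138752661.

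The other synthetases did not rise. Acsl1, the main form of heart, fat and liver, had a log2 ratio of -0.21 (SE 0.066, limma adjusted p = 0.0164), with ratios between -0.27 and -0.18 on the 4 arrays. It was the 1 called member whose channel levels overlapped. When arrays were centred on their median and loess was left out, the call ended (-0.24, limma adjusted p = 0.197), as it did without replicate 2 (-0.21, limma adjusted p = 0.0597), while its other probes gave -0.74 and -0.44. Acsl3, a form of lipid droplets and the endoplasmic reticulum, had -0.16, -0.21, -0.43 and 0.10 on the 4 arrays and was not called (mean -0.18, limma adjusted p = 0.109). It was called lower with the scanner LogRatio (-0.34, limma adjusted p = 0.0137) and without replicate 4 (-0.27, limma adjusted p = 0.024).

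Carnitine transport changed little, and its forms went different ways. Cpt1a, the outer-membrane carnitine palmitoyltransferase that sets the pace of long-chain oxidation, had 13.43, 13.21, 13.33 and 13.38 in -F+S cells, against 12.80, 12.72, 13.00 and 12.86 in normal culture. Each -F+S value was above each control value, with a rise of 0.50 on the log2 scale (SE 0.074, limma adjusted p = 0.000272), and its second probe gave 0.78. Cpt1c, the form known from neurons, was lower on every array, with ratios between -0.37 and -0.14 (mean -0.27, limma adjusted p = 0.0072). The call of Cpt1c ended with median centring (-0.21, limma adjusted p = 0.271). Cpt2, the inner-membrane partner enzyme, had 0.15, 0.11, -0.05 and -0.09 (mean 0.03, SE 0.072, limma adjusted p = 0.73). Acot2, a mitochondrial thioesterase that splits the CoA ester again, had 8.20, 8.54, 8.50 and 8.59 in -F+S cells, against 7.36, 7.08, 7.30 and 7.03 in normal culture. Those groups stand apart, with a log2 ratio of 1.26 (SE 0.11, limma adjusted p = 8.77e-06). The signal was dim, since the control channel was well above background on 2 of 4 arrays, and near-identical Acot genes may share the probe. With median-centred processed signals its log2 ratio was 2.07.

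**Figure D2:**
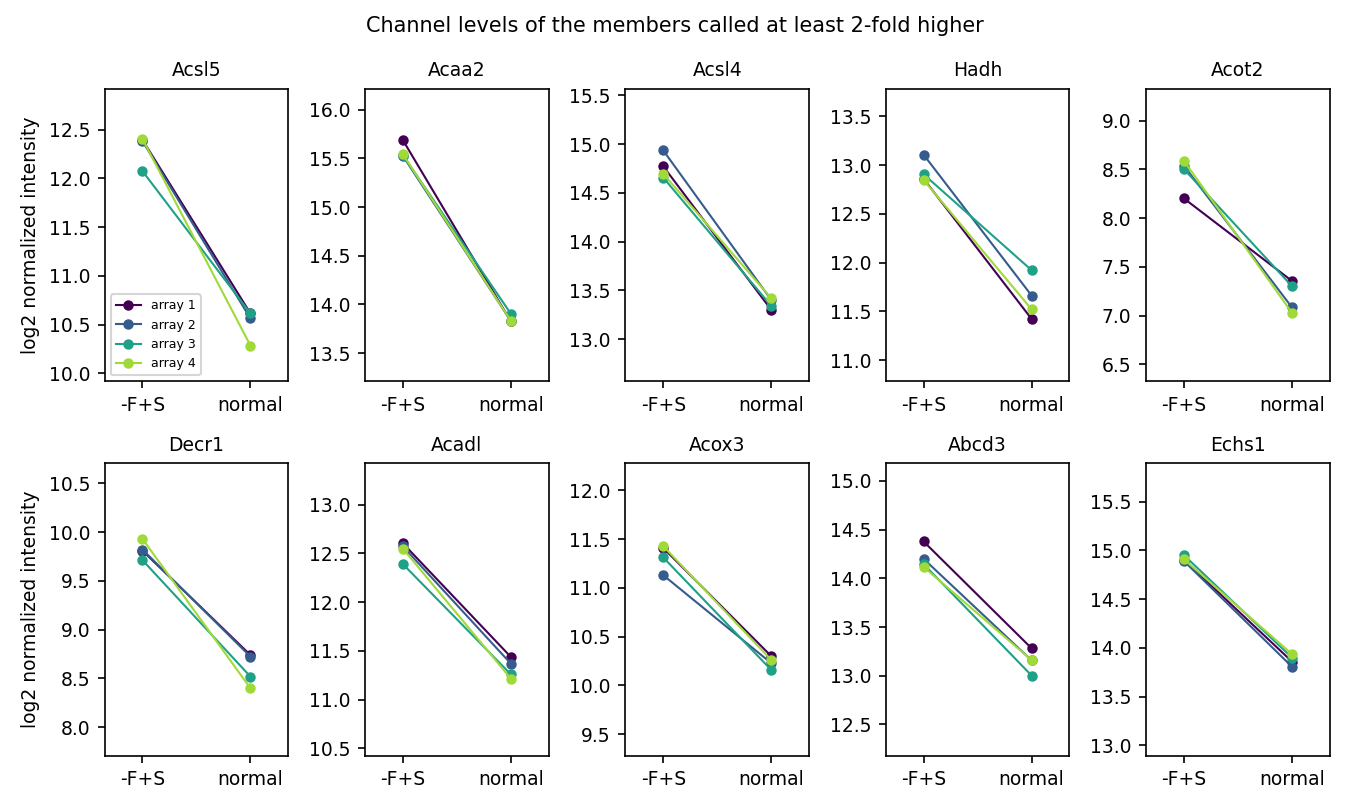
Log2 normalized intensity (vertical axis) in the -F+S and the normal culture channel of each array, joined by a line per array, for the 10 members called at least 2-fold higher. The lines run downward from -F+S to normal culture in all 10 panels, and the channels do not overlap. Each vertical axis spans the same number of log2 units at its own height.

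Among the acyl-CoA dehydrogenases, which take the first step of each round and differ in chain length, the 4 members had log2 ratios between 0.32 and 1.21. Acadl, the long-chain form, had 12.60, 12.57, 12.39 and 12.55 in -F+S cells, against 11.44, 11.37, 11.26 and 11.22 in normal culture. The groups lay apart by a similar distance on each array, a 2.31-fold difference (log2 1.21, SE 0.069, limma adjusted p = 4.62e-07). The very-long-chain form Acadvl and the medium-chain form Acadm were higher by 0.33 (SE 0.079) and 0.32 (SE 0.086) on the log2 scale, with limma adjusted p-values of 0.00495 and 0.00818. Acads, the short-chain form, had -0.35, 0.43, 0.85 and 0.37 on the 4 arrays. Its array of replicate 1 went against the rest, and the mean of 0.33 was not called (limma adjusted p = 0.0933). Without replicate 1 it was called, at 0.55 (limma adjusted p = 0.00254), as with median centring (0.41, limma adjusted p = 0.0421).

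Electrons from these enzymes pass to the electron transfer flavoprotein, made of the subunits Etfa and Etfb, and from there to ubiquinone through Etfdh. Etfb had 15.67, 15.61, 15.66 and 15.55 in -F+S cells, against 14.50, 14.54, 14.68 and 14.79 in normal culture. It was 1.99-fold higher (log2 0.99, SE 0.082, limma adjusted p = 5.36e-06), with no overlap between the channels. Etfa was higher by 0.57 (SE 0.068), with ratios of 0.49 to 0.64 on the arrays, so both subunits rose on all arrays (limma adjusted p = 6.35e-05 for Etfa). Etfdh was higher by 0.86 (SE 0.070, limma adjusted p = 4.88e-06), with ratios of 0.76 to 0.98. A second Etfdh probe, on chromosome 3 at 79419856 to 79419915, gave -0.13, -0.32, -0.03 and 0.56 (mean 0.022), where the brightest probe lies at 79407815 to 79407874 (mm9). The 2 Etfdh probes thus differed in their call.

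Of the 7 members of the later mitochondrial steps 6 were called higher (85.7%, against 37.5% of all genes). Acaa2, the thiolase that releases acetyl-CoA, had 15.69, 15.53, 15.53 and 15.54 in -F+S cells, against 13.83, 13.83, 13.91 and 13.83 in normal culture. That difference of 3.30-fold (log2 1.72, SE 0.070, limma adjusted p = 5.83e-08) was many times the spread between arrays. Hadh, the dehydrogenase for medium and short hydroxyacyl-CoA, had 12.86, 13.11, 12.91 and 12.85 in -F+S cells, against 11.42, 11.66, 11.92 and 11.52 in normal culture. Replicate 3 had its smallest ratio (0.98), and the rise was 2.46-fold (log2 1.30, SE 0.090, limma adjusted p = 1.61e-06). Echs1, the short-chain hydratase, had 14.90, 14.89, 14.95 and 14.91 in -F+S cells, against 13.86, 13.81, 13.90 and 13.94 in normal culture. Its ratios, 0.97 to 1.08, were among the tightest of the members (mean 1.04, SE 0.066, limma adjusted p = 9.01e-07). Decr1, a reductase needed for polyunsaturated fatty acids, had 9.81, 9.82, 9.71 and 9.93 in -F+S cells, against 8.74, 8.72, 8.52 and 8.40 in normal culture. The channels stood apart (log2 1.22, SE 0.089, limma adjusted p = 2.28e-06), and the second probe was also higher on each array, at 0.77 to 1.38. That second probe was dim, with its control channel well above background on 2 of 4 arrays. Eci1, an isomerase for unsaturated chains, was higher by 0.30 (SE 0.072, limma adjusted p = 0.00508).

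The mitochondrial trifunctional protein, which handles long chains, is built of Hadha and Hadhb. Their genes lie head to head on chromosome 5, with starts at 30154980 (Hadha, minus strand) and 30155253 (Hadhb, plus strand) in GRCm38.p6. The 272 bases between the starts contain the whole Hadhb sequence printed above. Hadhb was higher by 0.31 (SE 0.075, limma adjusted p = 0.00513), with ratios of 0.24, 0.31, 0.19 and 0.50. Hadha had -0.01, -0.03, -0.47 and -0.03 and was not called (mean -0.14, SE 0.092, limma adjusted p = 0.215). On the 4 arrays the ratio of Hadhb exceeded that of Hadha by 0.25, 0.34, 0.66 and 0.52. The order on single arrays rests on the Hadha probe. The second Hadha probe gave 0.25, 0.12, 0.40 and 0.13, above Hadhb on the arrays of replicates 1 and 3. Its mean of 0.23 was a rise (limma adjusted p = 0.0366 over second brightest probes) and lay below the Hadhb mean of 0.31. The scanner LogRatio called the first Hadha probe lower (-0.29, limma adjusted p = 0.0352).

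The calls of Acadvl, Acadm, Hadhb and Eci1 ended under each of 3 other scalings. With median centring their log2 ratios were 0.12, 0.28, 0.22 and 0.25, with the scanner LogRatio 0.22, 0.16, 0.14 and 0.12, and with median-centred processed signals 0.27, 0.21, 0.19 and 0.17. The 10 members with at least 2-fold rises were called higher under each alternative that could be run for them. Acot2 did not pass the stricter filter on both channels, and of the 10 only Acsl4, Decr1 and Abcd3 had another probe to test.

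Of the 6 peroxisomal enzyme and transporter members 5 were called higher (83.3%, against 37.5% of all genes). Among 25 further genes of this kind, set out below, the share was 44%. Acox3, an oxidase known for branched chains that takes the first step, had 11.41, 11.13, 11.31 and 11.43 in -F+S cells, against 10.30, 10.23, 10.16 and 10.26 in normal culture. It was 2.12-fold higher with separate groups (log2 1.08, SE 0.074, limma adjusted p = 1.43e-06). Abcd3, the transporter known as PMP70 that brings fatty acids across the peroxisomal membrane, had 14.38, 14.20, 14.15 and 14.12 in -F+S cells, against 13.28, 13.16, 13.00 and 13.16 in normal culture. Its brightest probe gave 1.06 (SE 0.069, limma adjusted p = 1.02e-06), but the other probes gave 0.29 and 0.16. On chromosome 3 (mm9) the brightest probe of Abcd3 begins at 121461892, and the other probes begin at 121476976 and 121475242.

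Decr2, the peroxisomal dienoyl reductase, was higher by 0.79 (SE 0.093, limma adjusted p = 5.63e-05), with ratios of 0.46 to 0.98. Acaa1a, the peroxisomal thiolase, was higher by 0.70 (SE 0.075, limma adjusted p = 3.25e-05), and its 3 probes all rose, by 0.70, 0.45 and 0.27. A near-identical thiolase gene may share signal with it. The peroxisomal cycle has a pair of bifunctional enzymes for its middle steps, and they differed in their calls. Ehhadh, the L-form, had 0.53, 0.46, 0.22 and 0.97 (mean 0.55, SE 0.11, limma adjusted p = 0.00177). Hsd17b4, the D-form that serves branched and very long chains, had 0.05, 0.05, 0.05 and 0.15 (mean 0.076, SE 0.066, limma adjusted p = 0.33). A difference between Ehhadh and Hsd17b4 was not tested.

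**Figure D3:**
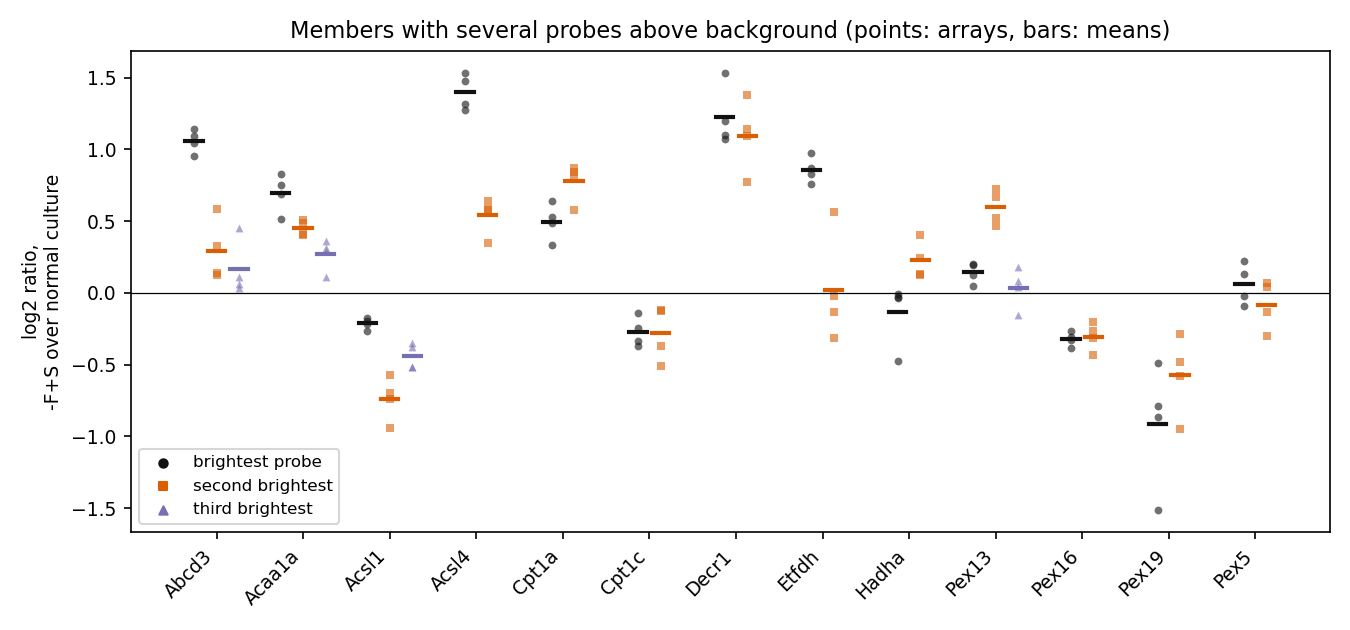
Log2 ratio of -F+S over normal culture (vertical axis) for every probe above background of the 13 members that have several (horizontal axis), with 1 point per array and the mean as a bar. Probes of Decr1, Cpt1c, Cpt1a, Pex16 and Pex19 lie on 1 side of 0, and those of Abcd3, Etfdh, Hadha and Pex13 differ in their calls.

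The PPAR receptor genes were higher by small amounts or not called. Pparg, the receptor of fat cells and macrophages, had 9.24, 9.36, 9.40 and 9.33 in -F+S cells, against 8.78, 8.89, 8.92 and 8.96 in normal culture. The channels did not overlap (log2 0.44, SE 0.066, limma adjusted p = 0.000275). Ppara, the receptor that drives fatty acid oxidation in liver, had 8.63, 8.46, 8.65 and 8.53 in -F+S cells, against 8.19, 8.17, 8.18 and 8.38 in normal culture. Here too the groups were apart, by 0.34 (SE 0.077, limma adjusted p = 0.00374). Ppard, the widely expressed form, had 7.37, 7.53, 7.47 and 7.35 in -F+S cells, against 7.29, 7.27, 7.48 and 7.49 in normal culture. Its levels overlapped (mean ratio 0.05, SE 0.080, limma adjusted p = 0.607), and its control channel was well above background on 3 of 4 arrays.

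The peroxins that were called went both ways. Of 7 peroxins, 1 was higher (14.3%, against 37.5% of all genes) and 2 were lower (28.6%, against 30.9%). The other 4 were not called, and the median log2 ratio of the 7 was 0.058, against 0.023 over all genes. Pex19, the cytosolic carrier of peroxisomal membrane proteins, had 12.05, 12.33, 11.77 and 12.16 in -F+S cells, against 12.92, 13.12, 13.29 and 12.65 in normal culture. It was 1.88-fold lower with no overlap (log2 -0.91, SE 0.14, limma adjusted p = 0.000332), with replicate 3 at -1.51 and the others between -0.87 and -0.49. A second Pex19 probe gave -0.58, -0.48, -0.95 and -0.29, lowest on the same array. Pex16, a membrane peroxin that works with Pex19, was lower by a log2 ratio of -0.32 (SE 0.066, limma adjusted p = 0.00194) on its first probe and -0.30 on its second. The Pex16 call ended with median centring (-0.35, limma adjusted p = 0.0639).

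Of the import receptors and their docking partners, 1 of 4 was called, where 68.4% of all genes were. Pex5 carries most matrix enzymes, and had -0.09, 0.22, -0.02 and 0.13 (mean 0.06, SE 0.077, limma adjusted p = 0.518). Pex7, the receptor for the smaller group with an N-terminal signal, was higher by 0.24 (SE 0.071, limma adjusted p = 0.0139), with ratios of 0.15 to 0.33. That call ended with each of the 3 other scalings, which gave 0.22, 0.06 and 0.11, and without replicate 3 (0.21, limma adjusted p = 0.0519). The docking proteins Pex13 and Pex14 had means of 0.14 and 0.42 and were not called (limma adjusted p = 0.0894 and 0.0762). Pex14 spread widely, with -0.15, 0.08, 1.25 and 0.49, and its control level on the array of replicate 3 (11.46) lay below the other controls (12.29 to 12.94). Without replicate 3 Pex14 was at 0.14, and without replicate 1 it was called, at 0.61 (limma adjusted p = 0.0195). The other Pex13 probes gave a called rise of 0.60 and an uncalled 0.04. Pex11a, which shapes dividing peroxisomes, had 0.05, 0.01, -0.04 and -0.53 (mean -0.13, limma adjusted p = 0.279), and was called lower with the scanner LogRatio (-0.32, limma adjusted p = 0.0304).

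The members were then set beside 102 other genes of the pathway, of which 94 were measured. Higher genes numbered 46 (48.9%, against 37.5% of all genes) and lower genes 19 (20.2%, against 30.9%). The median log2 ratio of the 94 was 0.20, and 14 rose at least 2-fold (14.9%, against 11.7% of all genes). Higher genes made up 70.8% of those called, 53.7% with the scanner LogRatio and 60.7% with median-centred processed signals. Over all genes these shares were 54.9%, 41.7% and 47.2%. Mitochondrial oxidation held the highest share of rises, with 11 of 14 genes higher (78.6%, against 37.5% of all genes) and 2 lower (14.3%, against 30.9%). The median of this list was 0.47, and 1 gene of it rose at least 2-fold (7.14%, against 11.7% of all genes). Its largest rises were Acadsb, a short and branched-chain dehydrogenase (log2 1.21), Pccb, a subunit of propionyl-CoA carboxylase (0.93), and Hsd17b10, a hydroxyacyl-CoA dehydrogenase (0.86). Acad10 and Acad11 were lower (-0.58 and -0.35), the Acad11 call ending with median centring (-0.26), without replicate 1 (-0.30) and without replicate 3 (-0.28).

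Uptake and binding of fatty acids held the largest rise of the pathway lists. The median of its 26 measured genes was 0.21. Of them 13 were higher (50%, against 37.5% of all genes) and 5 lower (19.2%, against 30.9%). Lpl, the lipase that frees fatty acids from lipoproteins, had ratios of 3.11, 3.03, 3.03 and 2.96 (mean 3.03, SE 0.067, limma adjusted p = 6.80e-09). The fatty acid binding protein genes Fabp3 and Fabp4 were higher by 2.28 and 1.94. The transporter genes Slc27a4 and Slc27a2 were lower (-0.72 and -0.70), as was the thioesterase Acot7 (-0.35). In the same transporter family Slc27a1 and Slc27a6, named after their values were seen, were called higher, and Slc27a3 and Slc27a5 were not called. The control channels of Slc27a6 and of Fabp5, a further binding protein gene, were well above background on 0 of 4 arrays. Both genes are among the 13 counted as higher and passed the filter through the -F+S channel only. On its second probe Slc27a4 was at -0.17 and not called (limma adjusted p = 0.083).

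Of 25 further peroxisomal enzyme and transporter genes, 11 were higher and 5 lower (median 0.13). These shares were 44% and 20%, against 37.5% and 30.9% of all genes. Idh1, an isocitrate dehydrogenase of cytosol and peroxisomes, and the sterol carrier gene Scp2 had log2 ratios of 1.65 and 0.92. Pipox, Pxmp2 and Abcd2 were lower (-0.42, -0.36 and -0.34), and all 3 calls ended with median centring, at -0.34, -0.36 and -0.32. Pxmp2 was measured on 3 of the 4 arrays. The second Abcd2 probe was higher (0.44). Of 13 other genes of peroxisome assembly and division, 5 were higher and 2 lower. The share of rises was 38.5%, against 37.5% of all genes, and the median was 0.031, against 0.023 over all genes. Acbd5, a tether of peroxisomes to the endoplasmic reticulum, Pex2, a ubiquitin ligase of the import machinery, and the fission gene Dnm1l were higher by 1.39, 1.08 and 0.84. The second Dnm1l probe gave 0.23 and was not called (limma adjusted p = 0.0658). Pex6 and Pex26, which recycle the import receptor, were lower (-0.78 and -0.70).

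Partners and targets of the PPAR receptors went both ways, with 6 of 16 higher and 5 lower, shares close to the 37.5% and 30.9% of all genes. Pdk4, a kinase that restrains pyruvate oxidation, was higher by 2.42, the coactivator Ncoa1 by 1.53 and the uncoupling protein gene Ucp2 by 1.15. Ppargc1b, a coactivator of mitochondrial genes, Plin5, a lipid droplet protein of oxidative cells, and the partner receptor Rxrg were lower (-0.61, -0.57 and -0.51).

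**Figure D4:**
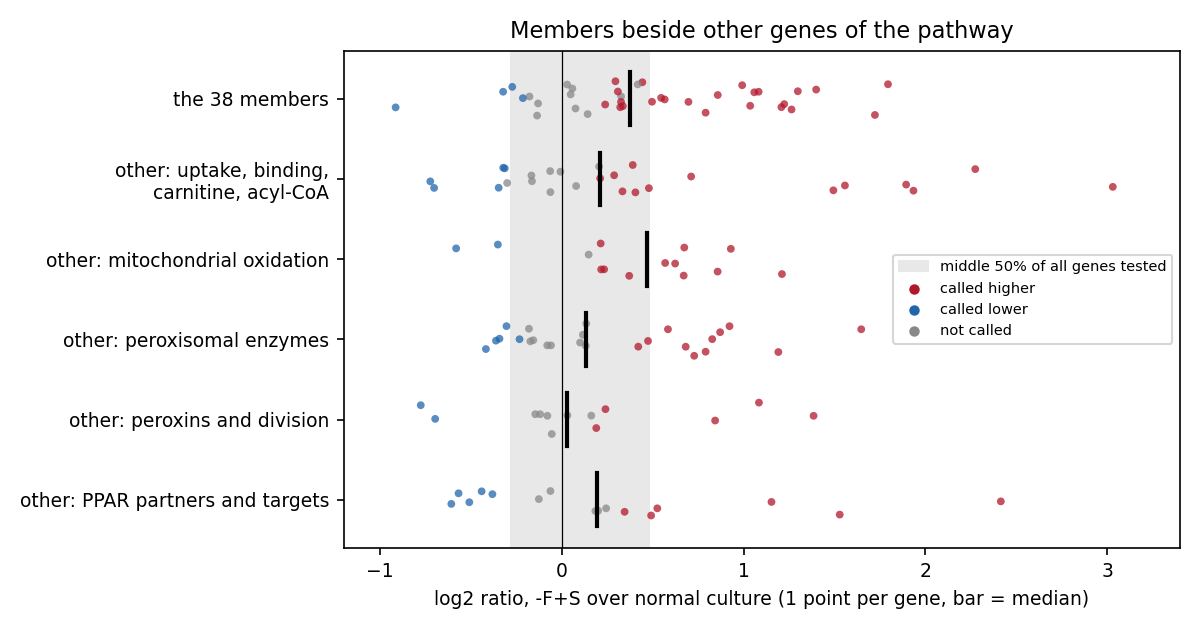
Each point is the mean log2 ratio of 1 gene (horizontal axis) for the 38 members and 5 lists of other pathway genes (vertical axis), coloured by the limma call, with the median of each list as a bar. The medians are 0.38 for the members and 0.21, 0.47, 0.13, 0.031 and 0.19 for the lists from top to bottom, and the shaded band holds the middle of all genes tested.

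Markers of several cell types moved on the same arrays, and in RNA of whole cultures fewer cells of a type and less RNA per cell cannot be told apart. All 13 measured markers of Sertoli cells were higher (100%, against 37.5% of all genes), with Aard at 3.48 and Cldn11 at 3.42. The summed intensity of the 13 was 537234 to 566445 in -F+S cells, against 126847 to 133572 in normal culture. Among them, the control channel was well above background on 1 of 4 arrays for Fshr and on 3 of 4 for Amh. Of 13 fibroblast markers 12 were higher (92.3%, against 37.5% of all genes), with Fbn1 at 2.50 and Timp3 at 2.42. The sums over the 13 were 1788916 to 1901904 in -F+S cells, against 673330 to 770894 in normal culture. Of 9 Leydig and peritubular markers 8 were higher (88.9%, against 37.5% of all genes) and 1 lower (11.1%, against 30.9%). Hsd3b1 was at 3.16, Tcf21 at 2.93 and Cyp17a1 at -0.34 (not called with median centring, -0.27). The sums over the 9 were 221084 to 265339 in -F+S cells, against 57602 to 64612 in normal culture. Lhcgr of that list did not pass the filter on dim signals, and Insl3 had no probe under that name.

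Macrophage and leukocyte markers were lower in 10 of 10 cases (100%, against 30.9% of all genes), with Marco at -3.21 and Adgre1 at -2.21. The sums over the 10 were 53199 to 66216 in -F+S cells, against 132926 to 157837 in normal culture. Of 15 germ cell markers 9 were lower (60%, against 30.9% of all genes) and 0 higher (against 37.5%). The lower ones included Dnd1 (-0.86) and Taf4b (-0.71). The sums over the 15 were 375869 to 428470 in -F+S cells, against 517744 to 557165 in normal culture. Ddx4, Dazl and the other germ cell markers measured were above background, and Zbtb16 had no probe under that name. Of 8 fat cell markers only 4 were measured, with Fabp4 (1.94) and Plin1 (0.68) higher, Cidec (-0.29) lower and Adipoq (-0.14) not called. Cidec was not called with median centring (-0.28). The control channel of Plin1 was well above background on 1 of 4 arrays, and its ratio was 1.77 with the scanner LogRatio and 1.82 with median-centred processed signals. Their sums were 17005 to 19435 in -F+S cells, against 4722 to 5932 in normal culture, and Fabp4 makes up most of them. Of the same list, Lep, Retn and Cfd did not pass the filter on dim signals and Pck1 had no probe under that name. The part of these cell types in the members' changes was not tested.

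**Figure D5:**
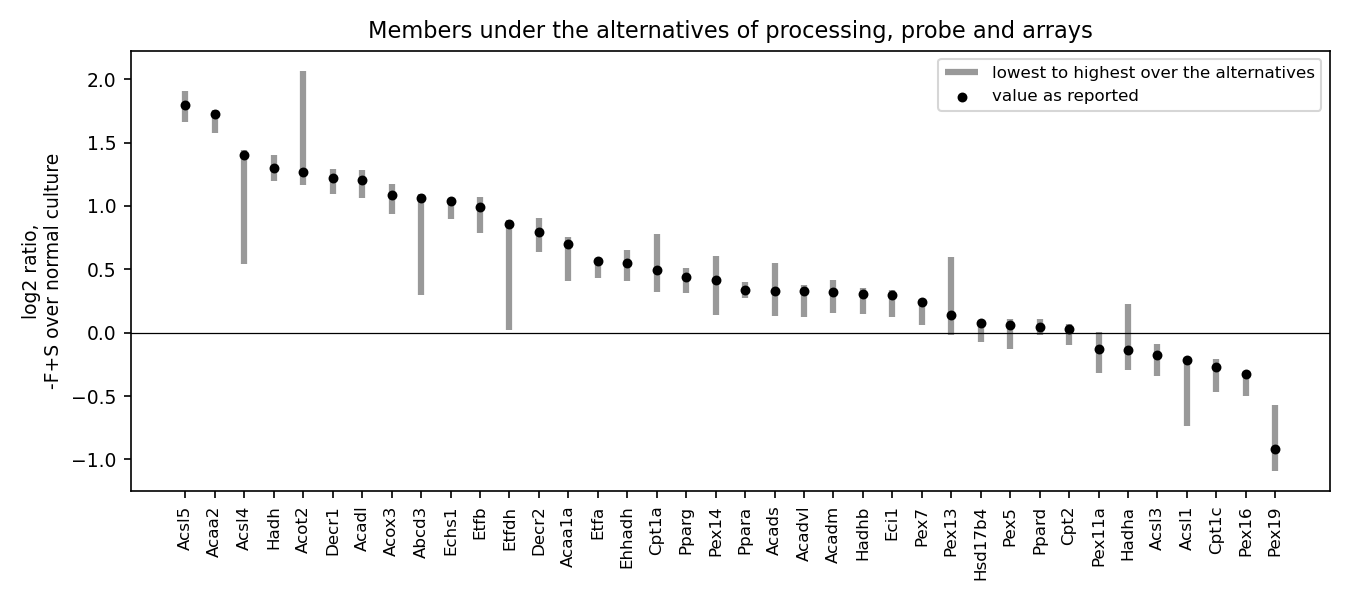
Log2 ratio of each of the 38 members as reported (points) and its lowest and highest value over the alternatives of scaling, background, filter, probe and left-out array (lines). Etfdh, Abcd3 and Acsl4 reach down to 0.02, 0.29 and 0.54 with their second brightest probes, and Acot2 reaches up to 2.07.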

How the data were processed

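The members and gene lists were chosen with earlier results of these data known. RNA of 4 -F+S and 4 control cultures was read on 4 arrays of 1 slide in 1 scan. The authors deposited scanner files with spot intensity made by Feature Extraction 10.5.1.1 of Agilent, as the file headers state. Per the file headers, that software also wrote a processed intensity (background-subtracted, dye-normalized), and its LogRatio is log10 of red over green, per the file headers. The series table deposited by the authors holds log2 values, which equalled green over red processed signals in 100% of cases (within 0.001), uncentred.

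Background was corrected by normexp (offset 50) on mean signal and median local background, and ratios were normalized by loess within arrays, with the 1639 control spots of 45018 at weight 0. Outlier spots (141 to 171 per array) were dropped and repeated spots averaged. The filter kept 27730 of 41174 probes, those that 1 channel showed well above background on 3 or more of the 4 arrays. Names came through RefSeq accessions (25089 probes), through symbols or synonyms (7978), or as in the files (8107). Channel levels are log2 values after Aquantile scaling. Summed marker levels add the linear values of different probes, so bright probes weigh most in them. The ratio was tested against 0 with limma 3.58.1 in R 4.3.3 (two-sided, Benjamini-Hochberg over 18454 genes, called under 0.05). SE is that of this fit. Precision is limited by there being 4 arrays (SD of the log2 ratio between arrays 0.147 for the median gene). Probes above background numbered 26613 to 28496 for -F+S and 25533 to 27891 for normal culture. The rule for named genes took members called with at least a 2-fold change, the largest called change in each role and the PPAR genes in full. Of each pathway list it took up to 3 called genes in each direction, and of each marker list up to 2. Some genes that the rule or the lists include are not reported here.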

Additional observations from a re-analysis of the deposited data

Results flagged for a closer look

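Among 79 genes with reported values, 5 had 1 array far from the other 3, judged by the gap to the nearest array over the whole range. Chance alone flags about 1 in 20 such groups. Hadha was at -0.47 on the array of replicate 3, where the other arrays lay between -0.03 and -0.01. Pex11a was at -0.53 on that of replicate 4, against -0.04 to 0.05 on the others. Hsd17b4 was at 0.15 on replicate 4 and at 0.05 on the other 3. Ncoa1 was at 1.16 on replicate 4, against 1.63 to 1.68, and Cldn11 at 3.20 on replicate 4, against 3.47 to 3.51.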

How the results depend on the processing

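Of the 38 members, 23 stayed on their side of the threshold under every alternative run, and those called also kept their direction. Cpt2, Hsd17b4, Ppard and Pex5, among the 23 and uncalled throughout, changed sign under some alternatives. The 4 called lower became 1 with median centring in place of loess and 7 with the scanner LogRatio, and on second brightest probes, which 13 members have, 7 were higher and 4 lower. Of called members 63.6% were then higher, against 58.2% over all genes. The members' median moved to 0.41, 0.26 and 0.31 with median centring, the scanner LogRatio and median-centred processed signals, and to 0.23 on second brightest probes. Of other pathway genes, the 19 lower became 11 with median centring and 31 with the LogRatio, and on second brightest probes 12 were higher and 10 lower of 37 tested. Leaving out 1 array gave 23 to 26 members higher, 3 to 5 lower and a median of 0.39 to 0.44, with 41 to 44 other pathway genes higher and 18 to 20 lower, and over all genes 6448 to 6746 higher and 4995 to 5384 lower. Over all genes the calls became 5505 higher and 3572 lower with median centring, and 2482 higher and 1780 lower on second brightest probes. Second brightest probes turned Hadha to 0.23 and Abcd2 to 0.44, and the mean of all kept probes, an alternative chosen after seeing the data, put Abcd2 at 0.050. Both conditions share each array, so the fit of ratios is itself the paired analysis. Dim control signals limit Acot2, Ppard, Plin1, Cidec, Slc27a6, Fabp5, Fshr, Amh and the second Decr1 probe. They also limit Fgf21, which was counted as higher among the PPAR partners and targets. The cause of these changes was not tested.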

Other observations

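Probes of 5 members (Cpt1a, Acaa2, Ppara, Pparg and Pex11a) were printed 10 times on each array, which allows the spread between spots to be set beside that between arrays. For Acaa2 the mean SD of the log2 ratio within an array was 0.020, against 0.098 between arrays. The same 2 values were 0.028 and 0.126 for Cpt1a, 0.061 and 0.147 for Ppara, and 0.029 and 0.272 for Pex11a. For Pparg they were 0.052 and 0.053. The low Pex11a value of replicate 4 rests on 10 spots, and their SD was at most 0.045 on any array.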
